A study of Mus musculus with 48 samples.

Results

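The footprint libraries of mouse kidney from the middle of the light phase were compared with those from the middle of the dark phase. Members were all RPF-seq libraries of timepoints ZT04, ZT06 and ZT08 (midday, 6 libraries) and of ZT16, ZT18 and ZT20 (midnight, 6 libraries), 12 of the 48 libraries of the series. RPF-seq sequences the mRNA fragments that translating ribosomes protect from nuclease, so that the footprint abundance of a gene reflects how much of it is being translated. All mice were C57BL/6JRj males of 11 to 12 weeks, kept in 12 h of light and 12 h of darkness with food at all times, and ZT (Zeitgeber time) counts the hours from lights-on. Each library came from a pool of kidneys of 2 mice, with 2 pools per timepoint. The labels give whole kidney and no treatment or genotype beyond the strain, and RNA-seq of the same 12 pools gave transcript abundance. The groups differ in time of day, so that light, feeding, activity and the circadian clock cannot be told apart.

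In the kidney as in other organs, a transcription-translation loop keeps time in each cell. The activators BMAL1 (Arntl) and CLOCK bind E-boxes and drive their own repressors, the PER and CRY proteins, and the nuclear receptors REV-ERBα and REV-ERBβ (Nr1d1, Nr1d2), which in turn repress genes with ROR elements. Mice are active and feed mostly in the dark, when body temperature is also higher. Heat shock factors, the unfolded protein response, corticosteroids and mTORC1, which controls translation of mRNAs for ribosomal proteins, are all known to follow such daily cues.

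Sequences from promoters of genes in these pathways were taken from RefSeq (GRCm38.p6), which gives windows of 250 bases before to 50 bases after each gene start, and are shown to place the motifs the text counts. The stretches were picked from genes with a match upstream of the annotated start, and read 5′ to 3′ along the gene. They are examples only, and the windows of Nr1d1 and Dbp held none of the motifs searched. Capitals mark the E-box CACGTG in the first pair and the heat shock element GAANNTTC in the last 3. In the second pair they mark AGGTCA, the core of the ROR element (in Nfil3 as its reverse complement). The bases that flank this core in a full element were not part of the search. None of these motifs contains another, and every window was searched on both strands.
Cry1 (chr10:85185089-85185134, minus strand): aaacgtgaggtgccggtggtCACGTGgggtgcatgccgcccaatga
Ciart (chr3:95882247-95882364, minus strand): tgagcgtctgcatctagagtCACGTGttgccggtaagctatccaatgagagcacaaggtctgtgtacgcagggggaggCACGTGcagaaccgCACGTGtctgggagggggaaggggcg
Nfil3 (chr13:52981040-52981071, minus strand): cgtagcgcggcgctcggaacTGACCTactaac
Nr1d2 (chr14:18239158-18239203, minus strand): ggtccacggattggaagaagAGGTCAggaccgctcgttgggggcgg
Fkbp4 (chr6:128438780-128438827, minus strand): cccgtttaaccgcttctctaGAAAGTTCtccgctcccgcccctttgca
Dnaja1 (chr4:40722324-40722371, plus strand): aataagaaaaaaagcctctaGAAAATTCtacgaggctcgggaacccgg
Hspb1 (chr5:135887782-135887849, plus strand): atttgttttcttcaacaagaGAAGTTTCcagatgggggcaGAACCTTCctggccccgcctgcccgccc

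Of 11863 genes tested, 867 (7.31%) had higher footprint abundance at midday and 726 (6.12%) at midnight (limma, Benjamini-Hochberg adjusted p under 0.05). With a difference of at least 1.5-fold as a further condition, 198 genes (1.67%) were higher at midday and 140 (1.18%) at midnight. Most differences were small: the median called gene differed 1.32-fold when higher at midday and 1.3-fold when higher at midnight, and 46 and 23 genes passed 2-fold. In 436 genes (3.68%) every midday library lay above every midnight library, and in 391 (3.3%) every one lay below. When each library was rescaled to the same sum of RPKM instead, the calls became 1430 at midday and 456 at midnight, so the balance between the directions depends on the scaling. Without ZT06 replicate 1 they fell to 530 and 495.

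The footprint depths of the groups overlapped. The reads recovered from the deposited values numbered 16982035 to 28854604 per midday footprint library and 15305953 to 27627953 per midnight footprint library. RNA-seq was shallower at midnight, with 10500350 to 19207231 reads against 14491932 to 25854548 at midday. All RNA libraries of ZT18 and ZT20, at 10500350 to 13403512 reads, lay below every midday RNA library. The footprint library ZT04 replicate 2 stood apart by listing 59 of the genes tested at 0 RPKM, against 0 to 4 in the other 11 libraries. None of those 59 genes was called by limma, but a 0 in 1 library widens their spread and makes a call unlikely. Without that library 2 of them were called at midnight and 1 at midday. Over all genes the calls were then 913 at midday and 738 at midnight, with 746 and 636 of the original calls kept and no called gene changing sign. Among the genes called, 607 of those higher at midday (70%) had their highest mean over all 12 timepoints at ZT04, ZT06 or ZT08. Of those higher at midnight, 532 (73.3%) had it at ZT16, ZT18 or ZT20. The same libraries selected these genes, so the selection itself favours a highest mean inside the window and these shares are no independent check. The other called genes had it outside both windows, most often at ZT10 for midday calls (150, 17.3%) and at ZT14 for midnight calls (106, 14.6%).

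Clock genes had the largest named difference in each direction. Nr1d1, which encodes REV-ERBα, had a footprint abundance of 39 to 63.9 RPKM (median 55.6) in the midday libraries and 1.26 to 8.85 RPKM (median 3.38) in the midnight libraries. The groups did not overlap, and the fitted difference was 14.1-fold (log2 difference 3.82 ± 0.38 SE, adjusted p = 5.93e-05). At the other end, Cry1, a repressor of the loop, ran from 1.31 to 2.73 RPKM (median 1.69) at midday and from 12.6 to 15.4 RPKM (median 13.4) at midnight, 7.49-fold higher at midnight (log2 −2.91 ± 0.14 SE, adjusted p = 3.85e-08). The midday values of Cry1 rest on 52 to 96 reads per library.

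**Figure D1:**
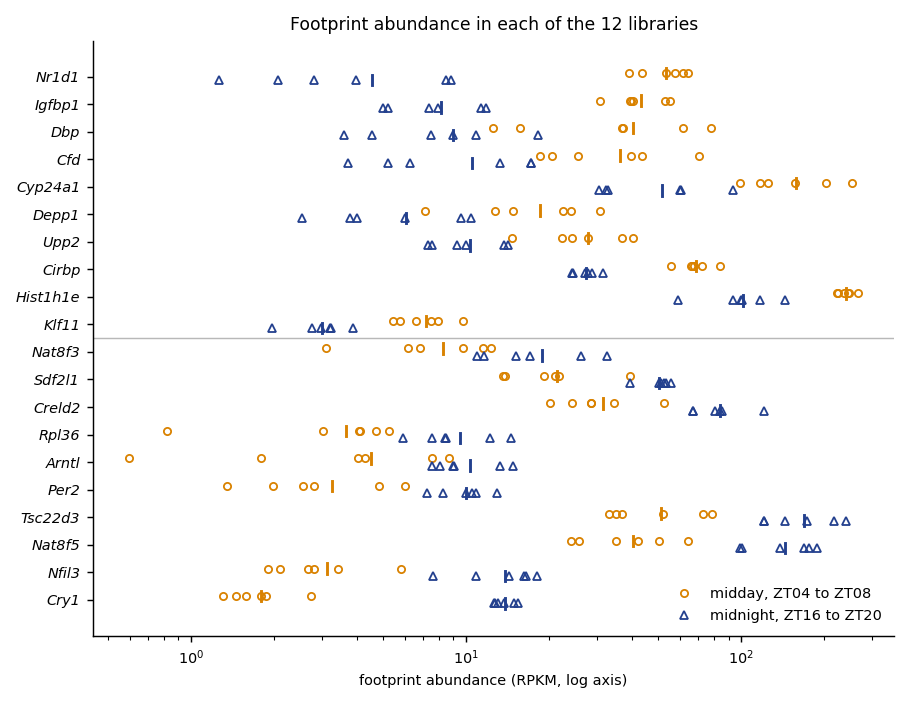
Footprint abundance (RPKM, logarithmic axis) of the 10 genes named for the largest difference in each direction, with 6 midday libraries as circles, 6 midnight libraries as triangles and the group mean as a bar. In Nr1d1 all midday libraries lie at 39 RPKM or above and all midnight libraries at 8.85 RPKM or below, while Arntl, Dbp, Depp1 and Nat8f3 overlap.

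Other repressors moved in both directions. Nr1d2, the REV-ERBβ gene, was 2.2-fold higher at midday (28.9 ± 6.91 against 14.1 ± 7.02 RPKM, SD, n = 6 each, adjusted p = 0.0153), although 26.1 RPKM in 1 ZT16 library overlapped the midday range. Ciart, a further repressor of CLOCK and BMAL1, had 0.776 to 12.1 RPKM at midday and 0.343 to 1.34 RPKM at midnight, and its call (adjusted p = 0.048) was lost without any 1 of 10 libraries, all but the ZT04 pair. Per2 was 3.32-fold higher at midnight (3.25 ± 1.79 against 9.96 ± 2.04 RPKM, adjusted p = 0.00167), with no overlap between groups. Cry2 was 1.4-fold higher at midnight (8.85 ± 1.32 against 12.4 ± 1.17 RPKM, adjusted p = 0.00657). The remaining members of the repressor list did not pass: the log2 differences were −0.54 ± 0.28 in Per1, 0.35 ± 0.30 in Per3, −0.32 ± 0.17 in Bhlhe40 and 0.38 ± 0.26 in Bhlhe41 (SE). Per1, Per3 and Nr1d2 all had their highest mean at ZT12, between the windows, where Per1 reached 11 RPKM and Nr1d2 44.8 RPKM.

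Arntl, the BMAL1 gene, led the activators described here. Arntl was 2.93-fold higher at midnight (4.5 ± 3.14 against 10.3 ± 3.02 RPKM), but the 2 ZT04 libraries, at 8.67 and 7.55 RPKM, stood at the midnight level and the ZT08 libraries at 1.8 and 0.597 RPKM, and its adjusted p was 0.0476. This call was lost without any 1 of 9 libraries, all but the ZT04 pair and ZT08 replicate 2, with an adjusted p of at most 0.0966 over all alternatives. Clock, Npas2 and Rora had log2 differences of −0.18 ± 0.17, −0.17 ± 0.50 and −0.08 ± 0.07 (SE) and were not called. Without ZT04 replicate 2 the log2 difference of Arntl became −1.78, and that of Nr1d1 was 3.87.

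The PAR bZIP genes, whose proteins bind D-boxes and carry clock output, split. Dbp climbed within the midday window, from 12.5 and 15.7 RPKM at ZT04 to 61.6 and 77.9 RPKM at ZT08, and fell within the midnight window from 18.3 and 10.9 RPKM at ZT16 to 3.61 and 4.55 RPKM at ZT20. Its 4.2-fold difference (adjusted p = 0.00943) therefore averages over slopes, and a ZT16 library exceeded both ZT04 libraries. Nfil3, which encodes the repressor at the same sites, was 4.49-fold higher at midnight (3.11 ± 1.41 against 13.9 ± 3.97 RPKM, adjusted p = 0.000188). Hlf and Tef, with log2 differences of −0.04 ± 0.11 and 0.36 ± 0.17 (SE), were not called and reached their highest means at ZT12.

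**Figure D2:**
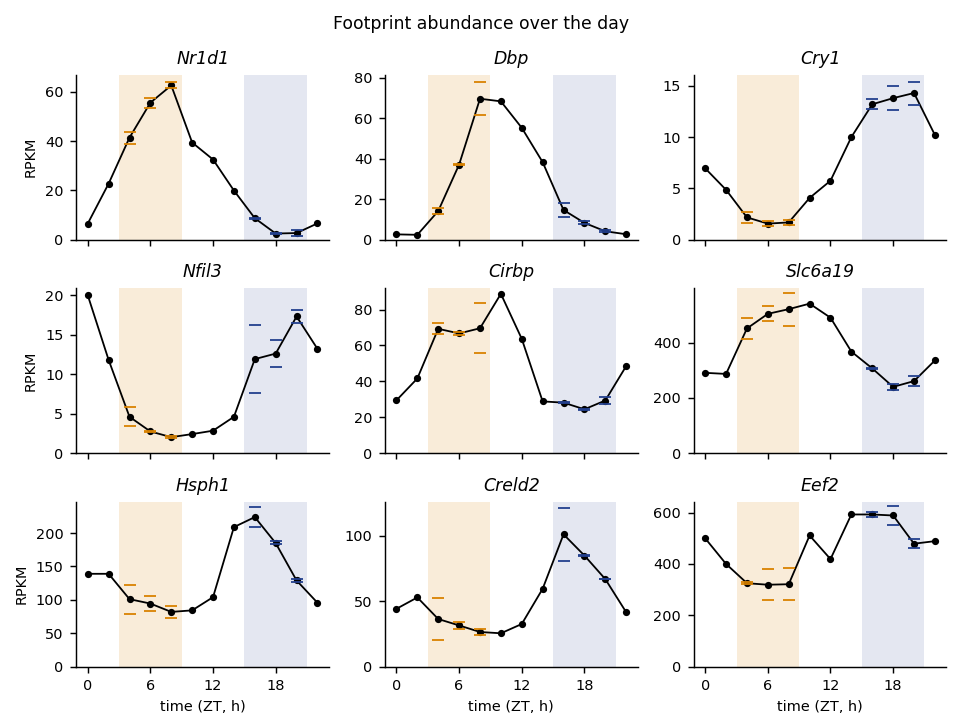
Mean footprint abundance (RPKM, linear axes from 0) at each of 12 timepoints (ZT, h) for 9 genes, with the midday window shaded orange, the midnight window shaded blue and dashes for the 2 libraries of each timepoint in a window. Nr1d1 peaks inside the midday window at 62.6 RPKM and Cry1 inside the midnight window at 14.3 RPKM, whereas Cirbp and Slc6a19 have their highest means at ZT10, after the midday window.

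Promoter windows could be matched by symbol for 9337 of the genes tested. An E-box was found on either strand in 5 of 16 clock genes with a window (31.2%), against 11.9% of all genes matched, 13.1% of genes higher at midday and 13.3% of genes higher at midnight. The core AGGTCA of ROR elements, searched without flanking bases, was found in 5 of those 16 genes (31.2%), against 15.1%, 15.4% and 16.9%. A D-box (TTATGTAA or TTACGTAA) occurred in 1 of them, against 0.921% of all genes, 0.294% of those higher at midday and 2.36% of those higher at midnight. Both Ciart, with 3 E-boxes, and Cry1, with 1, carried the motif shown above, and their footprints were called in opposite directions.

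Outside the clock, Igfbp1, which encodes a secreted binding protein of insulin-like growth factors that insulin represses, was highest at midday. Its footprints ran from 30.8 to 55.2 RPKM (median 40) at midday and from 5 to 11.8 RPKM (median 7.63) at midnight, 5.45-fold (adjusted p = 1.2e-05). Txnip, an inhibitor of thioredoxin and of glucose uptake, was 1.77-fold higher at midday (520 ± 59.5 against 294 ± 33.7 RPKM, adjusted p = 8.92e-05). In the list of gluconeogenesis and insulin signalling, 3 genes of 13 were higher at midday and 3 at midnight (23.1% each). Over all genes these shares were 7.31% and 6.12%. The third gene at midday was the receptor gene Igf1r. Those at midnight were Pck1 (1512 ± 448 against 2471 ± 501 RPKM) and G6pc (535 ± 42.8 against 791 ± 106 RPKM), which encode enzymes of gluconeogenesis, and the adaptor gene Irs1 (2.61 ± 0.284 against 3.75 ± 0.448 RPKM).

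Cyp24a1, the mitochondrial enzyme that breaks down active vitamin D, had 98.8 to 252 RPKM at midday and 30.4 to 93.1 RPKM at midnight, 3.19-fold (adjusted p = 0.0019). Upp2, a uridine phosphorylase, was 2.62-fold higher at midday (27.7 ± 9.57 against 10.3 ± 3 RPKM), Klf11, a transcription factor, 2.33-fold (7.14 ± 1.58 against 3 ± 0.631 RPKM) and Depp1 3.09-fold (18.6 ± 8.65 against 6.07 ± 3.27 RPKM, with overlap). Hist1h1e, a linker histone gene, stood at 224 to 266 RPKM in every midday library and at 58.8 to 144 RPKM in the midnight libraries, 2.43-fold (adjusted p = 0.000218). Of its close relatives, Hist1h1c differed in the same direction (546 ± 66.4 against 263 ± 26.5 RPKM, adjusted p = 1.01e-05), as did Hist1h1d (24.1 ± 1.81 against 12.4 ± 2.19 RPKM, adjusted p = 9.4e-05). These genes resemble each other in sequence, so reads may be shared among them.

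The metallothionein genes Mt1 and Mt2, whose products bind zinc and copper, were higher at midday. Mt2 ran from 176 to 309 RPKM at midday and from 81 to 159 RPKM at midnight (2.33-fold, adjusted p = 0.000603), and Mt1 had means of 730 ± 209 and 389 ± 70.7 RPKM (adjusted p = 0.00818). Within the NRF2 list of 18 genes tested these were the only 2 higher at midday, and 4 were higher at midnight (2 with equal RPKM sums), led by the heme oxygenase gene Hmox1 (58.8 ± 13.3 against 111 ± 38.5 RPKM, adjusted p = 0.0107). The shares of 11.1% at midday and 22.2% at midnight stood against 7.31% and 6.12% of all genes. Ferritin genes were also higher at midday: Fth1 by 0.47 ± 0.10 and Ftl1 by 0.46 ± 0.11 on the log2 scale (SE), together with the iron exporter gene Slc40a1 (0.57 ± 0.13). These are 3 of 10 genes of the iron list (30%, against 7.31% of all genes), with none higher at midnight (against 6.12%).

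Cirbp, an RNA-binding protein induced by mild cold, stood at 55.6 to 83.6 RPKM (median 66.9) at midday and 24.2 to 31.5 RPKM (median 27.4) at midnight, 2.5-fold (adjusted p = 1.63e-06). Rbm3, the other cold-inducible gene, had 126 ± 28 and 120 ± 15.5 RPKM and was not called (log2 0.05 ± 0.12 SE, adjusted p = 0.847). The genes of heat shock chaperones lay on the other side. Of 27 genes in the heat shock list, 16 (59.3%) were higher at midnight and none at midday, against 6.12% and 7.31% of all genes. The median log2 difference was −0.42, against 0.03 over all genes tested. Besides cytosolic chaperones and their partners, the list holds the factor gene Hsf1 and the mitochondrial chaperonin genes Hspd1 (called at midnight) and Hspe1 (not called). Hsph1, a nucleotide exchange factor of HSP70, ran from 73.1 to 122 RPKM at midday and from 127 to 239 RPKM at midnight (1.92-fold, adjusted p = 0.00184). Chordc1, a partner of HSP90, ran from 64 to 104 and from 119 to 169 RPKM (1.89-fold, adjusted p = 0.00044), and both genes had no overlap between groups and their highest mean at ZT16. Abundant members moved too, with Hsp90ab1 at 861 ± 155 and 1317 ± 116 RPKM and Hspa8 at 865 ± 156 and 1516 ± 526 RPKM (adjusted p = 0.00186 and 0.0304). The stress-inducible Hspa1b had 3.72 ± 1.08 and 9.59 ± 8.84 RPKM and was not called (adjusted p = 0.206), and it shares sequence with Hspa1a. The factor gene Hsf1 differed by −0.07 ± 0.14 (log2, SE).

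A heat shock element was present in the window of 12 of the 21 heat shock genes matched (57.1%), against 7.05% of all genes matched, 7.5% of those higher at midday and 8.6% of those higher at midnight. In the endoplasmic reticulum list none of 20 matched genes held it. In footprints 13 of the 24 genes of that list (54.2%) were higher at midnight, against 6.12% of all genes, and none at midday, against 7.31%, with a median of −0.37. Creld2, a disulfide-related chaperone of the reticulum, ran from 20.2 to 52.3 RPKM at midday and from 66.6 to 121 RPKM at midnight (2.75-fold, adjusted p = 0.000453). Sdf2l1, a cofactor of BiP, ran from 13.6 to 39.3 RPKM and from 39.6 to 55.5 RPKM (2.49-fold, adjusted p = 0.00107), without overlap. Pdia4, a protein disulfide isomerase, had 189 ± 19.8 and 262 ± 12.9 RPKM (adjusted p = 0.000712). Hspa5, encoding BiP, had 641 ± 175 and 1207 ± 150 RPKM, and Manf, a secreted stress-induced factor, 112 ± 34.1 and 240 ± 43.7 RPKM (adjusted p = 0.00117 and 0.00125). Regulators of the unfolded protein response moved less evenly, with Atf4 called (10 ± 1.29 against 18 ± 4.73 RPKM, adjusted p = 0.0038) and Xbp1, Atf6 and Ddit3 not.

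**Figure D3:**
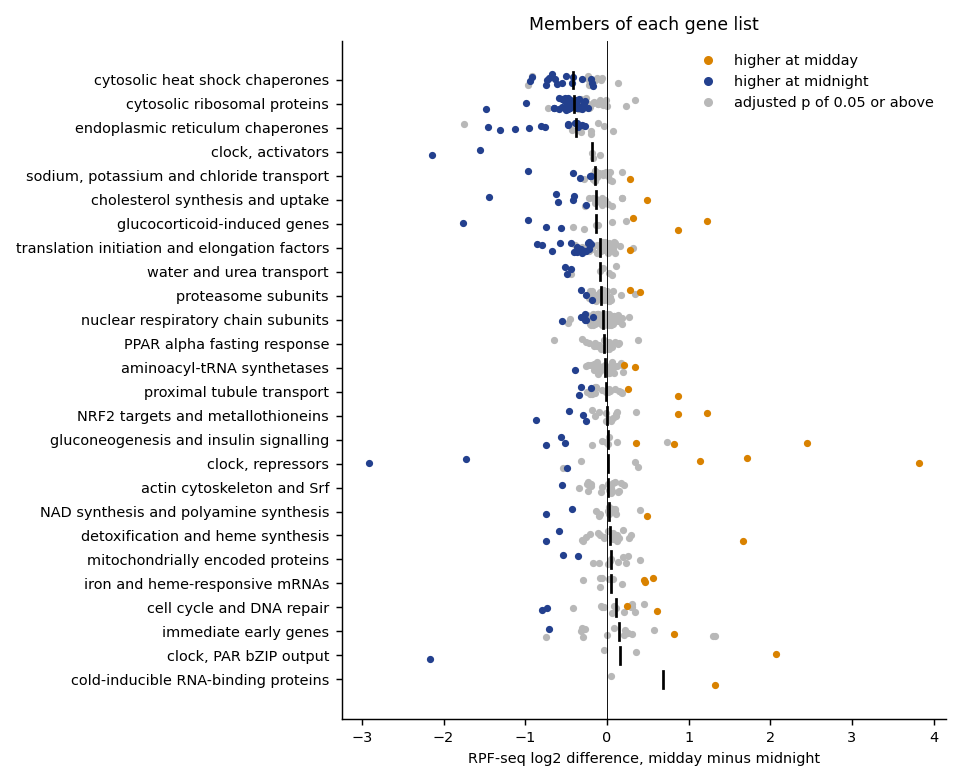
Footprint log2 difference (midday minus midnight) of each gene in 26 gene lists, orange where higher at midday, blue where higher at midnight and grey where the adjusted p was 0.05 or above, with a bar at the median of each list. The heat shock, ribosomal protein and endoplasmic reticulum lists have the lowest medians, −0.42, −0.40 and −0.37.

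Genes of the translation apparatus gave the most midnight calls of any list. Of 79 cytosolic ribosomal protein genes tested, 53 (67.1%) were higher at midnight and none at midday, against 6.12% of all genes, and the median log2 difference was −0.40. The called members differed by as little as 1.17-fold, with a median of 1.37-fold. In 27 of the 79, every midday library was below every midnight library, which held for 3.3% of all genes. Summed over the list, footprints came to 15023 to 18395 RPKM in the midday libraries and 20419 to 24173 RPKM in the midnight libraries. Rpl34 ran from 313 to 405 RPKM at midday and from 464 to 533 RPKM at midnight (1.43-fold, adjusted p = 0.000427), and Rps13 had 239 ± 23 and 332 ± 25.4 RPKM (adjusted p = 0.00098). The exceptions to the common direction were Rpl41 and Rps4l, with log2 differences of 0.23 and 0.35 that were not called. Rpl36 showed the largest difference of the list (−1.48 ± 0.36 SE, adjusted p = 0.0157), at 3.67 ± 1.58 and 9.52 ± 3.25 RPKM, with 0.815 RPKM in ZT04 replicate 2 and a log2 difference of −1.11 without that library. These genes have many near-identical pseudogene copies, so the share of their reads that was counted is uncertain, most of all at levels as low as that of Rpl36.

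In RNA-seq of the same pools, 15 of the 79 ribosomal protein transcripts were higher at midnight, where 15.2% of all genes were, and 2 at midday, where 19.3% were, with a median log2 difference of −0.07, and 42 of the 53 genes with higher footprints at midnight had no such call in RNA. The summed RNA ran from 32530 to 37229 RPKM at midday and from 34406 to 38336 RPKM at midnight, with overlap. The ratio of footprints to RNA (translation efficiency, tested within each pool) was higher at midnight in 16 of the 79 and at midday in none, against 5.3% and 4.97% of all genes, and lay below 0 on the log2 scale in 74. With equal RPKM sums 39 of the 79 had a higher ratio at midnight, but over all genes such calls also rose, from 629 to 1426. With quantile normalisation 21 of the 79 had a higher ratio at midnight, and without ZT04 replicate 2 16 did. For Rpl34 the RNA difference was 0.00 and that of the ratio −0.52 (adjusted p = 0.0099), while for Rps13 RNA and footprints moved alike (log2 −0.43 and −0.48, ratio adjusted p = 0.779).

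**Figure D4:**
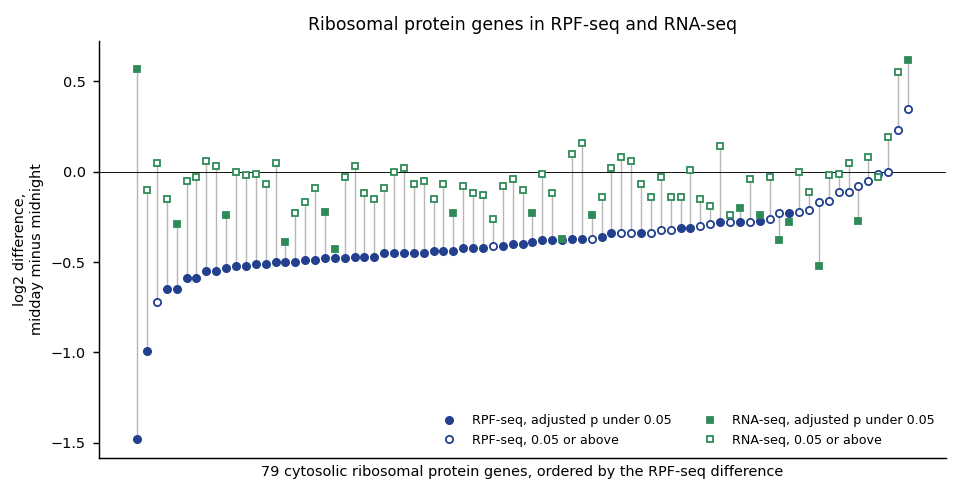
Log2 difference (midday minus midnight) of 79 cytosolic ribosomal protein genes in RPF-seq (circles) and RNA-seq (squares), filled where the adjusted p was under 0.05. Footprints lie below 0 in 77 of the 79 genes, mostly below the RNA of the same gene.

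Translation factors behaved unevenly. Of 53 tested, 17 (32.1%) were higher at midnight, against 6.12% of all genes, and 1, Eif4g3, at midday, with a median of −0.08. With equal RPKM sums 10 were higher at midnight. The elongation factors led: Eef2, which moves the ribosome along the mRNA, ran from 258 to 384 RPKM at midday and from 461 to 625 RPKM at midnight (1.73-fold, adjusted p = 0.000602), and Eef1a1, which delivers aminoacyl-tRNA, from 202 to 339 and from 439 to 554 RPKM (1.8-fold, adjusted p = 0.000682). Their RNA differed by 0.17 and −0.07 on the log2 scale, and their ratios by −0.96 and −0.78 (adjusted p = 0.00653 and 0.0147). Eef1b2 and Eef1g, subunits of the exchange factor of eEF1A, followed with −0.67 and −0.57 in footprints and −0.12 and −0.11 in RNA. Most initiation factors moved little, Eif4g1 by −0.08 and Eif4a1 by 0.01. Tpt1, encoding the growth-related TCTP protein, had 356 to 546 RPKM at midday and 651 to 907 RPKM at midnight, although its RNA was higher at midday (log2 0.49), giving a ratio difference of −1.25 (adjusted p = 0.000638). Other parts of the proteome machinery showed shares nearer to the background: 2 and 1 of 37 aminoacyl-tRNA synthetase genes and 2 and 3 of 36 proteasome genes were higher at midday and midnight. Over all genes the shares were 7.31% and 6.12%. The proteasome calls at midday were Psmb9 and Psmb10, subunits of the immunoproteasome.

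Over all genes, RNA-seq gave more calls than RPF-seq, 2289 higher at midday (19.3%) and 1804 higher at midnight (15.2%), with a median SD within the midday window of 0.146 on the log2 scale in RNA-seq and 0.16 in RPF-seq. Footprint and RNA calls shared 472 genes higher at midday, which is 54.4% of the footprint calls and 20.6% of the RNA calls, and 405 higher at midnight, 55.8% and 22.5%. Opposite calls were rare, 6 genes with footprints higher at midday and 19 at midnight. The ratio was higher at midday in 589 genes (4.97%) and at midnight in 629 (5.3%). With every library rescaled to equal RPKM sums, these ratio calls were 248 and 1426, and the RNA calls 4663 and 606. Leaving out any 1 of the ZT06, ZT08 and ZT20 libraries lowered the ratio calls to between 238 and 332 at midday and between 293 and 391 at midnight. The footprint difference had a matching ratio call in 103 of 867 genes at midday and 107 of 726 at midnight.

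**Figure D5:**
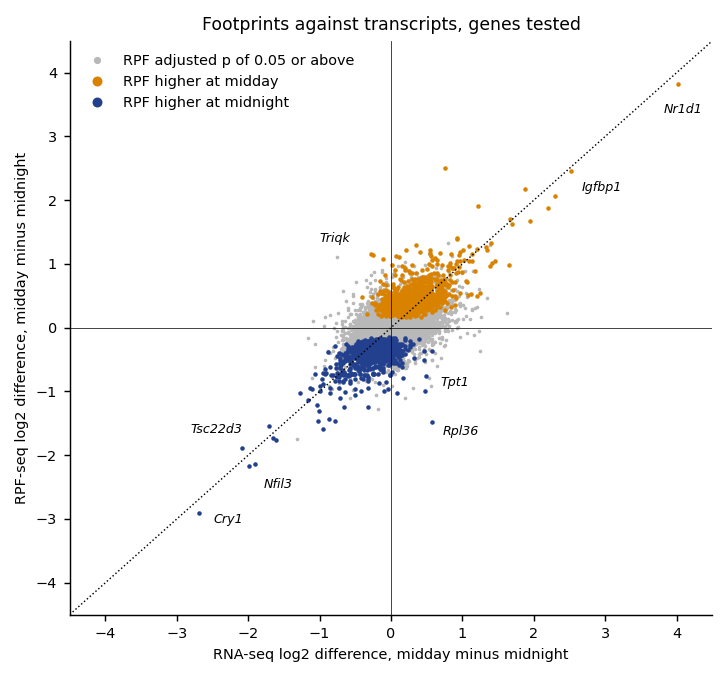
RPF-seq log2 difference against RNA-seq log2 difference (midday minus midnight) for 11863 genes, orange and blue where footprints were called higher at midday or midnight, with a dotted line at equality. Nr1d1 and Cry1 lie near the line, and Tpt1 and Rpl36 have lower footprints and higher RNA at midday.

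The ratio extremes included mitochondrially encoded genes. Footprints of mt-Atp8 and mt-Nd2 did not differ by the test (log2 0.20 ± 0.19 and 0.41 ± 0.20 SE), but their RNA was lower at midday (−0.86 and −0.63), and the ratio was higher by 1.06 and 1.04 (adjusted p = 0.0253 and 0.0436). In the whole list of 12 tested, 4 had a higher ratio at midday, against 4.97% of all genes, and 8 had RNA higher at midnight, against 15.2%. With quantile normalisation 1 gene of the list had such a ratio call, and the median ratio difference of the list went from 0.50 to 0.29 on the log2 scale. In footprints 2 (16.7%, against 6.12% of all genes) were higher at midnight, mt-Co3 (−0.35 ± 0.10) and mt-Nd6 (−0.54 ± 0.16). Their adjusted p was 0.0374 and 0.039, and the calls were lost without any 1 of 9 and of 8 libraries. Triqk, a small endoplasmic reticulum protein, had 4.98 to 11.7 RPKM at midday and 1.4 to 4.99 RPKM at midnight, with RNA not called and the largest ratio difference towards midday (1.39, adjusted p = 0.00653). Chadl had the ratio difference of −1.33 (adjusted p = 0.0118) with no footprint call (4 ± 1.47 against 7.09 ± 3.07 RPKM). The nuclear respiratory chain list had 6 of 74 genes (8.11%) higher at midnight, near the 6.12% of all genes, and none at midday. This count fell to 3 without ZT04 replicate 2 and to 2 with equal RPKM sums or quantile normalisation. The 6 included Cox7c (1553 ± 355 against 2249 ± 376 RPKM) and Ndufc1 (416 ± 34.6 against 502 ± 12.3 RPKM).

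Corticosteroid-induced genes included strong midnight genes. Tsc22d3, encoding the glucocorticoid-induced leucine zipper GILZ, ran from 33 to 78.3 RPKM (median 44.3) at midday and from 121 to 240 RPKM (median 159) at midnight, 3.38-fold (adjusted p = 0.000494). Sgk1, the kinase that raises sodium channel activity under aldosterone, ran from 38.5 to 60.3 and from 67.2 to 168 RPKM (1.96-fold, adjusted p = 0.00364), and both were highest at ZT16. Of the 13 genes in the list, 4 were higher at midnight, with Fkbp5 (71.1 ± 11.3 against 122 ± 34.5 RPKM) and Ddit4 (18.2 ± 3.21 against 27.2 ± 6.34 RPKM) completing them, and 3 at midday, Mt1, Mt2 and Klf9. These are 30.8% and 23.1% of the list, against 6.12% and 7.31% of all genes.

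Transport genes of the nephron differed by less. Of 24 genes for sodium, potassium and chloride transport, 5 were higher at midnight (20.8%) and 1 at midday (4.17%). Over all genes these shares were 6.12% and 7.31%. With equal RPKM sums or quantile normalisation 3 of the list were higher at midnight. The 5 at midnight included Sgk1, Umod, the sodium channel subunit gene Scnn1a (43.2 ± 2.84 against 54.4 ± 3.07 RPKM, adjusted p = 0.00276) and the potassium channel gene Kcnj1 (128 ± 6.82 against 148 ± 9.96 RPKM). The sodium-proton exchanger gene Slc9a3 was the one at midday (60.2 ± 7.85 against 49.1 ± 2.1 RPKM, adjusted p = 0.037). The cotransporter genes Slc12a1 and Slc12a3 had log2 differences of −0.12 ± 0.07 and −0.14 ± 0.06 (SE), not called. Umod, encoding uromodulin of the thick ascending limb, ran from 3141 to 3792 RPKM at midday and from 4169 to 5668 RPKM at midnight (adjusted p = 0.00618).

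Among water and urea transport genes 3 of 9 were higher at midnight (33.3%, against 6.12% of all genes) and none at midday (against 7.31%). Aqp1, the water channel of the proximal tubule, had 924 ± 76.5 and 1250 ± 50.6 RPKM (adjusted p = 0.00062), and the vasopressin receptor gene Avpr2 had 11.7 ± 1.71 and 16.4 ± 1.72 RPKM (adjusted p = 0.00582), both without overlap. Aqp2, the vasopressin-regulated channel of the collecting duct, had 198 ± 25.1 and 289 ± 85.2 RPKM with overlap (adjusted p = 0.0318), a call lost without any of 6 of the 12 libraries in turn. In the proximal tubule list Slc6a19, the neutral amino acid transporter of the brush border, stood out at 414 to 581 RPKM at midday and 229 to 309 RPKM at midnight (1.83-fold, adjusted p = 8.92e-05). Slc2a2 was also higher at midday, and Slc13a3 (443 ± 39.9 against 552 ± 41.1 RPKM) and Slc22a8 were among those higher at midnight, in all 2 and 3 of 23 genes. These are 8.7% and 13% of the list, against 7.31% and 6.12% of all genes. With quantile normalisation 1 of the 23 was higher at midnight.

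In cholesterol metabolism 6 of 21 genes (28.6%) were higher at midnight and 1 (4.76%), Idi1, at midday. Over all genes these shares were 6.12% and 7.31%. Lss, lanosterol synthase, had 12.6 ± 0.522 and 16.8 ± 1.53 RPKM (adjusted p = 0.00212). Pmvk, which phosphorylates mevalonate phosphate, ran from 15.7 to 25.1 RPKM at midday and from 25 to 41.9 RPKM at midnight, with a slight overlap (1.51-fold, adjusted p = 0.00813). Its RNA was not called (log2 −0.23, adjusted p = 0.114). None of 20 PPARα target genes was called by limma, against 7.31% of all genes at midday and 6.12% at midnight. Of the 20, 1 had an unadjusted p under 0.05, and 0 were called by voom on recovered reads. Acot1 and Plin2, the members with the smallest p, had log2 differences of −0.25 ± 0.12 and −0.16 ± 0.06 (SE).

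Single genes of the remaining lists passed. Nat8f5, an acetyltransferase-related gene of kidney, ran from 24 to 64 RPKM at midday and from 98.8 to 188 RPKM at midnight (3.71-fold, adjusted p = 0.000274), and Nat8 had 185 ± 25.9 and 310 ± 54.5 RPKM. Nat8f3 ran from 3.09 to 12.3 RPKM and from 11 to 32.5 RPKM (2.31-fold, adjusted p = 0.0257), with overlap, and lost its call without ZT04 replicate 1, ZT06 replicate 1 or ZT16 replicate 1 (adjusted p at most 0.058). Reads may be shared within this family of close paralogs. Amd1, which makes the aminopropyl donor of polyamine synthesis, had 21.5 ± 2.3 and 35.8 ± 2.47 RPKM (adjusted p = 6.7e-05), and Nampt, the rate-limiting enzyme of NAD salvage, 154 ± 14.2 and 208 ± 20.2 RPKM (adjusted p = 0.00233). The DNA repair gene Xpa was 1.52-fold higher at midday (adjusted p = 0.00129), and the growth arrest gene Gadd45g was higher at midnight (61.7 ± 18.2 against 105 ± 21.5 RPKM). Actg1 was the only called gene of 20 in the actin list (5% at midnight, against 6.12% of all genes). Actg1 footprints ran from 1019 to 1292 RPKM at midday and from 1543 to 1933 RPKM at midnight (log2 −0.55). Its RNA was higher at midday by 0.16 (ratio −0.70, adjusted p = 0.0015). Actb, of similar coding sequence, had a log2 difference of −0.24 ± 0.08 (adjusted p = 0.0695). Junb was higher at midday and Ier3 at midnight among 16 immediate early genes (adjusted p = 0.0198 and 0.0427). Each is 6.25% of that list, near the 7.31% of all genes at midday and 6.12% at midnight. Lars was higher at midday (24.9 ± 2.08 against 19.7 ± 1.15 RPKM) and Farsa at midnight (30.8 ± 2.25 against 40.7 ± 7.35 RPKM).

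The tissue was checked against markers. Proximal tubule markers summed to 100427 to 132917 RPKM at midday and 83599 to 145192 RPKM at midnight, and none of 5 was called. Kap alone held 9.95 to 12.9% of footprint RPKM at midday and 7.95 to 13.5% at midnight, so the sum mostly follows that gene. By contrast, Slc34a1, Slc5a2 and Lrp2 had midday means of 5018, 475 and 1004 RPKM. None of the 7 adrenal cortex and medulla genes was listed. In bulk tissue, fewer cells of a type and less RNA per cell cannot be told apart. Some endothelial and stromal markers were higher at midday, against 7.31% of all genes: 3 of 4 endothelial genes, among them Pecam1 (25.1 ± 1.6 against 19 ± 1.54 RPKM) and Cdh5 (32.1 ± 2 against 24.8 ± 2.87 RPKM), and 3 of 5 stromal genes, among them Col3a1 (22.1 ± 2.88 against 14 ± 3.16 RPKM) and Pdgfrb (35 ± 1.57 against 28.5 ± 3.12 RPKM). Acta2, a smooth muscle actin gene in the stromal list, had the opposite sign and was not called (log2 −0.34, adjusted p = 0.291). Summed endothelial markers came to 202 to 236 RPKM at midday and 158 to 205 RPKM at midnight, and summed stromal markers to 111 to 161 and 93.8 to 192 RPKM, both with overlap. Leukocyte, red blood cell, hepatocyte and intercalated cell markers gave no call.

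Adipocyte markers bear on Cfd, the adipsin gene, which is abundant in fat. Cfd ran from 18.5 to 70.3 RPKM at midday and from 3.71 to 17.2 RPKM at midnight (3.64-fold, adjusted p = 0.009). Adipoq, encoding adiponectin, ran from 2.02 to 8.34 and from 0.395 to 1.88 RPKM (4.54-fold, adjusted p = 0.00239), and Cidec, a lipid droplet protein, from 1.58 to 5 and from 0.136 to 2.39 RPKM (adjusted p = 0.0275, lost without any 1 of 6 libraries). Summed over the 4 adipocyte genes listed, the level was 248 to 372 RPKM at midday and 201 to 489 RPKM at midnight, with overlap. Adipoq and Cidec, at no more than 8.34 and 5 RPKM, made up little of this sum. The sum mostly reflects the other genes listed, Plin1 and Fabp4. Its highest value, 489 RPKM, was in the midnight library ZT16 replicate 2. Of the 3 genes tested, the 1 not called had a log2 difference of 0.20. The part of adipose tissue in the difference of Cfd was not tested.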

How the data were processed

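The authors trimmed reads with cutadapt, removed rRNA and tRNA reads, mapped the rest to mouse cDNA with Bowtie2 2.2.1 and to GRCm38.p2 with TopHat2 2.0.11, took transcript models from Cufflinks 2.2.1 and deposited each library's RPKM by gene, computed on coding sequences after upper quantile normalisation in edgeR (tools per the submitters' processing notes and the study's methods). The authors left out weakly expressed genes. Whole reads behind the RPKM values were recovered for 12621 of 12622 footprint genes and all 12728 RNA genes (100% of values) and give the depth stated. They are not independent molecules.

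Genes listed in both assays (12423) whose median reached 0.5 RPKM in each (11863) were tested on log2(RPKM + 0.1), which understates differences of low genes, with limma 3.58.1 in R 4.3.3 (2 group means, eBayes with trend and Benjamini-Hochberg adjustment). The log2 difference of RPF and RNA within each pool was tested likewise. Errors are SD over 6 libraries or SE of the fit. P-values measure the spread between the pools of a window, which includes any change between the timepoints of that window. Code was tested on simulated data.

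Named were the 10 largest footprint differences in each direction at a mean of at least 5 RPKM, every clock gene, the 2 members of every other list with the smallest p and the 3 largest ratio differences in each direction. The mean floor of 5 RPKM and an adjusted p under 0.05 also held for the ratio genes. Genes passed over by this rule are not reported here, and all others named were chosen after their values were seen. The comparison and the lists were chosen with earlier results of these data known. Python 3.11.15 and matplotlib 3.10.9 made the tables and plots. Liver libraries were not analysed here.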

Additional observations from a re-analysis of the deposited data

Results flagged for a closer look

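Each of the 101 genes named by rule was checked in both windows for a library whose gap to its nearest neighbour took more of the range of the 6 values than Dixon's 95% limit. Of these 202 checks 9 were past the limit, and about 1 in 20 would be by chance. In the midday window, ZT04 replicate 1 stood apart in Atp6v0d2 (53.1 RPKM against 38.7 to 42.6 in the others) and in Sdf2l1 (39.3 against 13.6 to 21.8 RPKM). ZT04 replicate 2 stood apart in Clock (9.07 against 5.93 to 6.8 RPKM) and in mt-Co3 (2898 against 1955 to 2258 RPKM). ZT06 replicate 2 did so in Pdgfrb (37.9 against 33.5 to 35.1 RPKM) and ZT08 replicate 1 in Lss (13.7 against 12.2 to 12.5 RPKM). In the midnight window, ZT16 replicate 2 stood apart in Creld2 (121 against 66.6 to 85.4 RPKM), ZT16 replicate 1 in Sdf2l1 (39.6 against 50.1 to 55.5 RPKM) and ZT18 replicate 1 in Hlf (42.7 against 35.7 to 38.1 RPKM).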

How the results depend on the processing

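Of the 69 named genes called in footprints, 58 kept call and direction in all 22 alternative settings, and none changed sign. Adipoq kept both in the settings that gave it a value, which leaves out the minimum of 2 RPKM, as for Ciart and Cidec. The other 10 (Aqp2, Arntl, Ciart, Cidec, Cox7c, Farsa, Ier3, Nat8f3, mt-Co3 and mt-Nd6) lost the call in 1 to 14 settings, with adjusted p of at most 0.1. Among genes not called, the log2 difference changed sign in Hlf (0.02 with equal RPKM sums, and 0.00 and 0.04 without either ZT04 library), Npas2 (0.18 and 0.04 without either ZT08 library, 0.04 and 0.06 without either ZT20 library), Rbm3 (−0.06 without ZT08 replicate 2, −0.01 without ZT20 replicate 2) and Hbb-bt (−0.04 without ZT20 replicate 2). Over all libraries left out, these ran from −0.11 to 0.04 in Hlf, −0.48 to 0.18 in Npas2, −0.06 to 0.09 in Rbm3 and −0.04 to 0.61 in Hbb-bt. Nphs1, at 0.00, came to −0.05 with quantile normalisation, to −0.00 with a pseudocount of 1 and to between −0.05 and 0.07 without single libraries. Cox7c lost its call without ZT06 replicate 1 or ZT08 replicate 1 (adjusted p at most 0.0546), Farsa with equal RPKM sums (0.0577) and Ier3 without any 1 of 8 libraries (at most 0.0942).

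With equal RPKM sums the median of all genes moved from 0.03 to 0.08 in footprints, from 0.02 to 0.18 in RNA and from 0.01 to −0.09 in the ratio, and the calls were those given beside the results: 1430 and 456 in footprints, 4663 and 606 in RNA, 248 and 1426 in the ratio. Under that scaling 48 ribosomal protein, 11 heat shock and 12 endoplasmic reticulum genes had footprints higher at midnight. Fitting means of all 12 timepoints over 24 libraries gave 1369 and 1130 footprint calls and 970 and 970 ratio calls. A pseudocount of 1 left 97 genes with a 1.5-fold difference at midday. Voom on recovered reads, chosen after seeing the data, gave 953 and 822 footprint calls.

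Leaving out each library in turn gave 530 to 913 footprint calls at midday and 495 to 738 at midnight (165 to 221 and 116 to 155 with 1.5-fold), 1927 to 2628 and 1479 to 2230 RNA calls, and 238 to 655 and 293 to 656 ratio calls. The lowest footprint counts, 530 and 495, came without ZT06 replicate 1.

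The labels tie replicate numbers to no batch or animal. Replicate differences correlated between timepoints from −0.17 to 0.11, over 0.1 in 1 of 15 pairs, so the numbers do not pair the pools. A replicate block gave 828 and 685 footprint calls, 196 and 136 with 1.5-fold, and 552 and 576 ratio calls.

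Upper quantile normalisation hides any change in total mRNA or footprints per cell, and low genes rest on few reads, such as 6 to 27 in Adipoq at midnight.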
